A study of Mus musculus with 12 samples.

Results

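A set of 10 genes that build or remodel the actin and tubulin cytoskeleton were followed through RNA-seq of mouse hematopoietic stem cells (HSCs). They were picked by gene symbol: the cytoplasmic actins Actb and Actg1, the alpha-tubulins Tuba1a, Tuba1b and Tuba4a, the beta-tubulins Tubb5, Tubb2a and Tubb6, and the actin regulators Pfn1 and Cfl1. All 10 had a row among the 22548 genes of the expression table. The samples were sorted long-term HSCs of C57BL/6 mice in 3 groups. There were 4 from young mice (2 to 4 months old), 5 from aged mice and 3 CASIN-treated ones from aged mice (aged being 20 to 26 months old). In the last group the sorted cells, not the mice, were given 5 µM CASIN, an inhibitor of the small GTPase Cdc42, in culture. Cells of every group, the controls included, had been held for 16 h in HBSS with 10% FBS (37 °C, 5% CO2, 3% O2), so that none was measured fresh from the marrow. Each library came from a pool of sorted cells, at least 200 by the design text of the series, while the methods give a different number, and the study calls the replicates biological repeats. The first comparison, young against aged, asks what differs with age, and the second, aged CASIN-treated against aged, asks what differs with inhibition of Cdc42. Both use the same 5 aged samples and are therefore not independent of each other.

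Actin subunits assemble into filaments that give the cell cortex its shape and pull, and alpha- and beta-tubulin pair up as the subunit of microtubules. Cdc42 is a small GTPase that sets the axis of polarised cells by steering both systems, in part through WASP-family proteins, formins, PAK kinases and Par proteins. In young HSCs Cdc42 and tubulin are known to sit on one side of the cell, and this polar arrangement is known to be lost in many aged HSCs.

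The deposited values are on a log2 scale on which all samples share nearly 1 distribution, and their depth is unknown. Within a sample, 78.1% to 95.6% of the genes above the lowest value carried a value that at least 8 genes had in common, and these shared values formed a ladder. The first step above the lowest value held 458 to 1452 genes and the tenth step held 80 to 367. Genes of very different length stood on one step, for example 1617 to 7009 bases (10th to 90th percentile of 746 coding genes) on the first step of young replicate 2. The values are thus not per length, and levels are compared here between samples rather than between genes. The first step lay at 4.11 in young replicate 2 but at 0.04 in CASIN replicate 2, so one log2 value stood for very different positions on the ladder. For this reason the step is given beside the value where a result turns on it, step 0 being the lowest value of the sample. Of 120 values of the 10 genes, 73 lay above the lowest value of their sample (60.8%, against 50.2% over all genes), 71 of them on a step and 24 of them on step 1 to 5.

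The libraries differed in how much they detected. Young samples had 6078 to 9673 genes above the lowest value, aged samples 11463 to 17621, and CASIN replicates 1, 2 and 3 had 6845, 20013 and 7288. CASIN replicate 2 therefore stood apart from its group, and it was the only CASIN sample with all 10 genes above the lowest value (3 in each of the others, 4 to 7 in young and 5 to 10 in aged samples). The HSC gene Meis1 was present in all 12 samples (6.54 to 8.53), whereas Kit and Ly6a, which encode sort markers of these cells, stood at the lowest value in all 4 young samples, in 2 of 5 aged samples and in 2 of 3 CASIN samples. The T cell genes Cd3d (8.26 to 9.98) and Cd8a (3.03 to 7.86) were above the lowest value in all 12 samples, although the methods describe a lineage depletion that includes CD8a, whereas the other T cell genes Cd3e and Cd3g were so in 6 and 5 of 12. In these bulk samples fewer cells of a type and less RNA per cell cannot be told apart. The part of the unequal detection in the differences below was not tested beyond the alternatives named with them. Young and aged samples did not overlap in the number of detected genes. With this number as a covariate, detection and age can therefore not be fully told apart.

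The promoter stretches of Actg1 and Pfn1 are shown because both genes differed between young and aged HSCs before adjustment and because Actg1 carried the motif bound by serum response factor (SRF), a transcription factor that answers to the pool of free actin. They are from RefSeq on GRCm38.p6 and cover 150 to 51 bases upstream of the RefSeq start on the minus strand, at chr11:120348546-120348645 for Actg1 and chr11:70654701-70654800 for Pfn1. Capitals mark the CCAAT and CArG matches.
Actg1: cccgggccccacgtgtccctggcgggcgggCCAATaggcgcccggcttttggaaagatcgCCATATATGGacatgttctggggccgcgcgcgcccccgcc
Pfn1: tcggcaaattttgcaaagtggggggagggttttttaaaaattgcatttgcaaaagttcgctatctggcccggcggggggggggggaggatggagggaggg
RefSeq promoters (250 bases before to 50 after the start) were searched for 8 of the 10 genes, all but Actb and Tubb6. A CArG box, that is CC, a run of 6 A or T, and GG, was found on either strand in 1 of these 8, Actg1, with its first base at -90, and in 1.63% of 32851 promoters. The box TATAAA was found in 1 of 8, Tubb2a at -29, and in 13.6% of promoters. CCAAT was found in 4 of 8, namely Actg1 at -120, Tuba1a at -176, Tubb5 at -198 and -90, and Cfl1 at -146, and in 37.4% of promoters. The motifs do not overlap one another. These matches describe the letters of the window only.

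In the young-against-aged comparison none of the 10 genes had an adjusted p under 0.05 (limma, Benjamini-Hochberg over all genes, smallest adjusted p = 0.516). Over all genes 4 passed, or 0.0177%. Before adjustment 3 of 10 had a p under 0.05, with Actb and Pfn1 higher and Actg1 lower in young HSCs, against 1202 genes or 5.33% of all. In CASIN-treated against aged HSCs none of the 10 passed either (limma, smallest adjusted p = 0.948), while 5 genes or 0.0222% of all did. Before adjustment Actb was the 1 gene of 10 with a p under 0.05, higher after CASIN, against 993 genes or 4.4% of all. The median difference of the 10 genes was 1.14 for young minus aged (-0.02 over all genes) and -0.07 for CASIN minus aged (-0.04 over all genes), with a median standard error of 0.93 and 1.02 per gene. Mean levels were higher than in aged HSCs for 8 of 10 genes in young and for 4 of 10 in CASIN-treated HSCs. The lowest values themselves ran from 0.43 to 0.67 in young and from 0.02 to 0.23 in aged samples. A gene at the lowest value in both groups thus came out higher in young. With a common lowest value the young-minus-aged difference of Tuba4a was -0.00339. These counts have no share of all genes beside them and are not read as a result.

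Actb encodes beta-actin, the main actin of the leading edge (chr5:142903115-142906754, minus strand, mm10). It was the only one of the 10 genes above the lowest value in all 12 samples. Its log2 values were 6.16, 6.80, 2.92 and 7.73 in young replicates 2 to 5, then 3.29, 1.86, 2.02, 1.53 and 2.67 in aged replicates 0 and 2 to 5, and 5.52, 4.15 and 5.52 in CASIN replicates 1 to 3. All 3 CASIN samples and 3 of 4 young samples lay above every aged sample, and young replicate 4 lay within the aged range. Young HSCs averaged 5.90 ± 2.09 (SD, n = 4), aged HSCs 2.27 ± 0.70 (SD, n = 5) and CASIN-treated HSCs 5.06 ± 0.79 (SD, n = 3). Young exceeded aged by 3.63 (SE 0.87) on the log2 scale, which did not pass limma's test after adjustment (adjusted p = 0.516, exact two-sided permutation p = 0.0159). Without young replicate 4 the difference was 4.62 and the adjusted limma p 0.0312, so that the call for Actb turned on this 1 sample. CASIN-treated exceeded aged HSCs by 2.79 (SE 0.95), again without passing limma's test (adjusted p = 0.948, exact two-sided permutation p = 0.0179, the smallest that 3 samples against 5 allow). Without CASIN replicate 2 this difference was 3.24 (limma adjusted p = 0.582). Actb was higher without overlap after CASIN, as were 0.683% of all genes. On the ladder the picture was less even, with steps 26, 116, 10 and at least 167 in young, 29, 55, 5, 2 and 32 in aged, and 19, 140 and 12 in CASIN samples. The steps of the 3 groups overlapped, and aged replicate 2 stood on a higher step than 2 of the 4 young samples while its log2 value was lower.

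Actg1 encodes gamma-actin, which differs from beta-actin in a few residues near the start of the protein (chr11:120345690-120348542, minus strand). Its log2 values were 0.67, 4.86, 2.26 and 0.65 in young, 5.79, 7.07, 5.84, 6.44 and 2.21 in aged, and 0.63, 3.93 and 4.39 in CASIN samples. Young replicates 2 and 5 and CASIN replicate 1 were at the lowest value of their sample, and 4 of the 5 aged samples lay above every other sample. The mean of young HSCs was 2.11 ± 1.98 (SD, n = 4), that of aged HSCs 5.47 ± 1.89 (SD, n = 5) and that of CASIN-treated HSCs 2.98 ± 2.05 (SD, n = 3). The difference of young minus aged was -3.36 (SE 1.24), which did not pass limma's test after adjustment (adjusted p = 0.764, exact two-sided permutation p = 0.0556). For CASIN minus aged it was -2.49 (SE 1.34) (limma adjusted p = 0.948, exact two-sided permutation p = 0.143). Aged replicate 5 stood apart at 2.21, and without it the differences were -4.17 and -3.30. Without CASIN replicate 2 the CASIN-minus-aged difference of Actg1 was -2.96. With the number of detected genes as a covariate the young-minus-aged difference was -2.26 (limma, unadjusted p = 0.178).

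**Figure D1:**
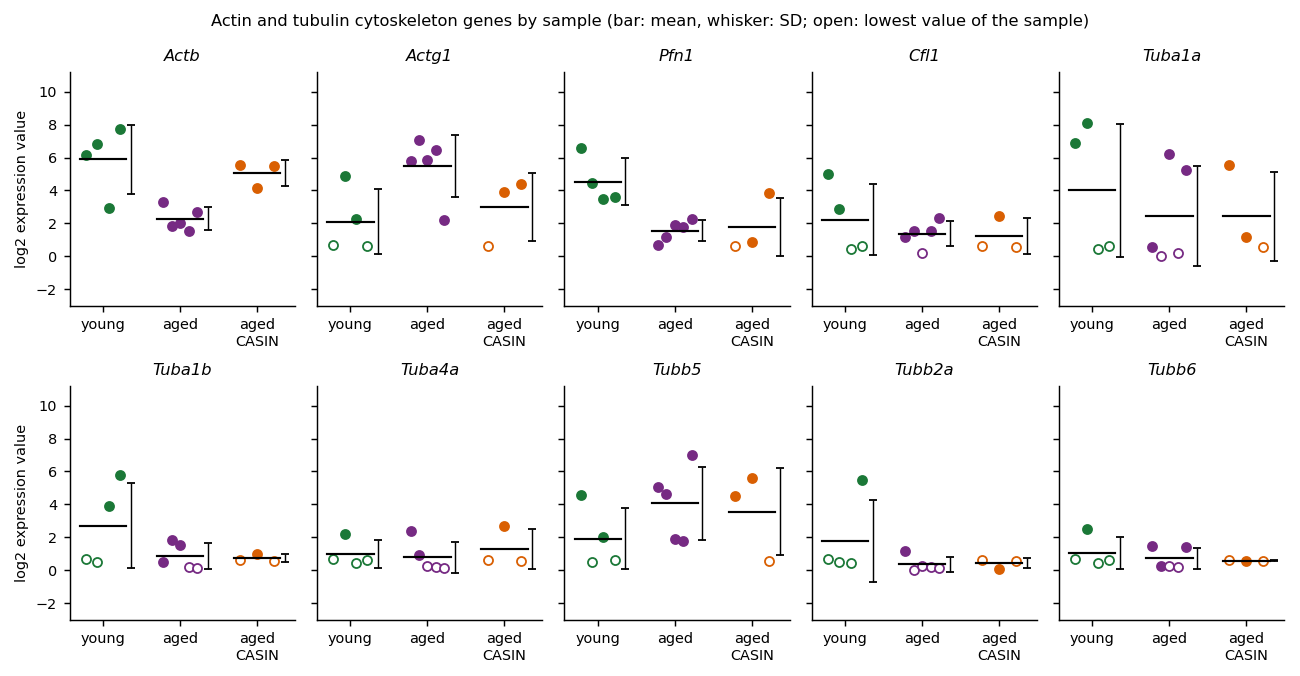
Log2 expression value of the 10 genes in each sample, with 1 point per sample, the group mean as a bar and the SD as a whisker; open points are at the lowest value of their sample. Actb is low in all 5 aged samples (1.53 to 3.29), Actg1 is above 5.7 in 4 of them, and most tubulins are at the lowest value in several samples of each group.

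In most samples the order of the 2 cytoplasmic actins thus differed between aged HSCs and the other groups. Their transcripts are of nearly equal length (1920 and 1952 bases), so that a difference within a sample is little touched by length. Actg1 minus Actb was -5.49, -1.95, -0.66 and -7.07 in young, 2.49, 5.21, 3.81, 4.91 and -0.45 in aged, and -4.90, -0.22 and -1.12 in CASIN samples. Actb had the higher value in all 4 young and all 3 CASIN samples, and Actg1 in 4 of 5 aged samples. On average it was -3.79 ± 2.99 (SD, n = 4) for young, but 3.20 ± 2.30 (SD, n = 5) for aged HSCs, and -2.08 ± 2.48 (SD, n = 3) after CASIN. Young differed from aged by -6.99 (exact two-sided permutation p = 0.0159, adjusted p = 0.0952 over the 6 pair tests made). CASIN-treated differed from aged by -5.28 (exact two-sided permutation p = 0.0536, adjusted p = 0.107). Neither passed after adjustment. Actg1 was at the lowest value in young replicates 2 and 5 (-5.49 and -7.07) and CASIN replicate 1 (-4.90). These differences thus set Actb against a lowest value and not against a measured level of Actg1.

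The same pair was also read from the ladder. A step is a position within a sample and not an amount, so the following is a description with no test. As a share of the summed steps of both genes, Actg1 made up 0, 19.4, 28.6 and 0% in young, 64.6, 80.8, 90.0, 92.9 and 41.8% in aged, and 0, 49.1 and 25.0% in CASIN samples. Young and aged samples did not overlap in this share, and CASIN replicate 2 lay above the lowest aged sample. The levels of both genes are uncertain where reads fit more than 1 gene. Of all 50-base windows of the longest coding transcript, 14.2% for Actb and 56.7% for Actg1 occurred in transcripts of another gene, mostly pseudogenes for Actb (15 of 18 genes) and 12 pseudogenes among 22 genes for Actg1. Only 1.60% and 1.58% were shared between the 2 actins. How the authors' counting split such reads is not given in the sources used here.

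**Figure D2:**
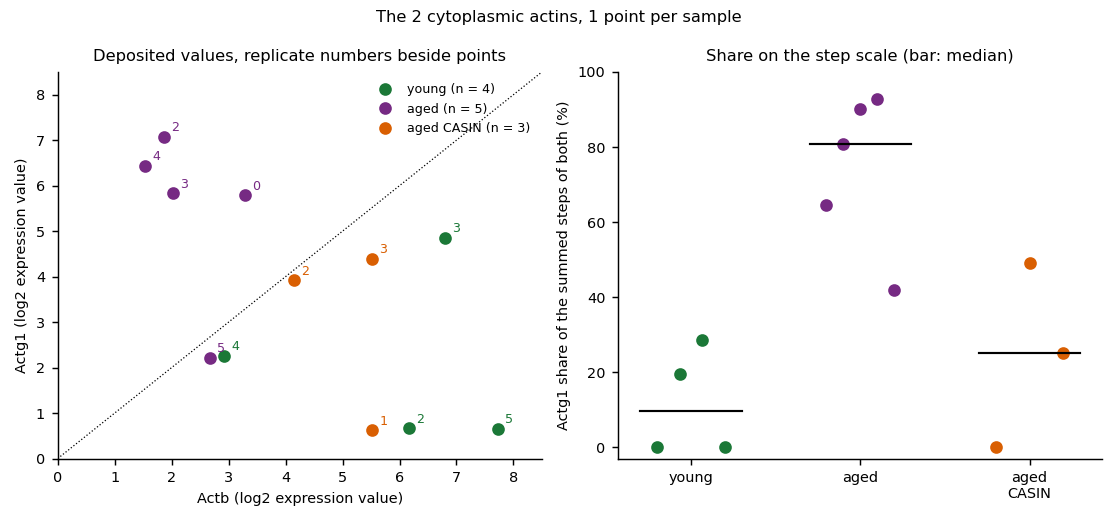
Left, Actg1 against Actb in each sample on the deposited log2 scale, with the replicate number beside each point and a dotted line where both are equal; right, the share of Actg1 in the summed steps of both genes, with the group median as a bar. All but 1 of the aged samples lie above the line and all young and CASIN samples below it, and the share is 41.8% to 92.9% in aged against 0% to 28.6% in young samples.

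Profilin 1, encoded by Pfn1, hands ATP-bound actin monomers to growing filament ends (chr11:70651850-70654644, minus strand). Its log2 values were 6.56, 4.48, 3.49 and 3.59 in young, 0.67, 1.16, 1.88, 1.80 and 2.25 in aged, and 0.63, 0.87 and 3.82 in CASIN samples. Every young sample lay above every aged sample, as was so for 0.341% of all genes, and CASIN replicate 3 alone of its group reached the young range. Young exceeded aged by 2.98 (SE 0.82), with means of 4.53 ± 1.43 (SD, n = 4) and 1.55 ± 0.63 (SD, n = 5), a difference that did not pass limma's test after adjustment (adjusted p = 0.542, exact two-sided permutation p = 0.00794, the smallest possible). With the number of detected genes as a covariate it was 2.10 (limma, unadjusted p = 0.0578). The steps were 49, 20, 15 and 1 in young, 3, 30, 4, 3 and 24 in aged, and 0, 42 and 2 in CASIN samples. Young replicate 5 thus stood on the first step above the lowest value, and aged replicates 2 and 5 stood on higher steps than 3 of 4 and 3 of 4 young samples respectively, although their log2 values were lower. CASIN minus aged was 0.22 (SE 0.89, 95% interval -1.74 to 2.18), a range that allows a sizeable difference in either direction, and without CASIN replicate 2 it was 0.67. None of the 812 windows of the Pfn1 transcript occurred in another gene.

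Cofilin 1, encoded by Cfl1, severs actin filaments and returns their subunits to the monomer pool (chr19:5490455-5495201, plus strand). It was above the lowest value in 2 of 4 young (5.01 and 2.85), in 4 of 5 aged (1.16, 1.57, 1.53 and 2.34) and in 1 of 3 CASIN samples (2.48). The groups overlapped, with a difference of 0.87 (SE 0.92) for young minus aged and -0.14 (SE 1.01) for CASIN minus aged. Cfl1 minus Pfn1, the severing over the monomer-loading factor within a sample, averaged -2.29 ± 0.82 (SD, n = 4) for young HSCs, against -0.18 ± 0.87 (SD, n = 5) for the aged ones. This differed by -2.11 (exact two-sided permutation p = 0.0317, adjusted p = 0.0952 over the 6 pair tests), and leaving out 1 sample moved the p to between 0.0286 and 0.0857. For CASIN minus aged the difference was -0.36 (exact two-sided permutation p = 0.786). Cfl1 was at the lowest value in young replicates 4 and 5 (-3.06 and -2.94), aged replicate 3 (-1.65) and CASIN replicate 3 (-3.25). These differences thus set Pfn1 against a lowest value and not against a measured level of Cfl1. In CASIN replicate 1 both genes were at the lowest value, so that its difference of 0 was not measured. For Cfl1, 9.11% of windows occurred in 3 other genes, all of them pseudogenes.

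Tuba1a and Tuba1b encode nearly identical alpha-tubulins and lie next to each other in the genome (chr15:98949837-98953703 and chr15:98931425-98934565, minus strand). Tuba1a was either at 5 or more or below 1.5 in each sample, with 5 samples in the upper and 7 in the lower class and none between. The high samples were young replicates 2 and 3 (6.87 and 8.08), aged replicates 3 and 5 (6.19 and 5.27) and CASIN replicate 1 (5.52). The ladder did not show this gap, since CASIN replicate 2 stood on step 56 at 1.2 and aged replicate 3 on step 53 at 6.19. High and low samples occurred in every group, and the SD over the 12 samples of 3.11 was the largest of the 10 genes. Tuba1b was above the lowest value in young replicates 4 and 5 (3.93 and 5.77), in aged replicates 0, 2 and 3 (0.48, 1.84 and 1.54) and in CASIN replicate 2 (1.0). The young samples with Tuba1b were the ones without Tuba1a. The differences of young minus aged were 1.55 (SE 2.06) for Tuba1a and 1.86 (SE 1.01) for Tuba1b, with exact two-sided permutation p-values of 0.492 and 0.151. For CASIN minus aged they were -0.02 (SE 2.25, 95% interval -4.98 to 4.94) and -0.12 (SE 1.10, 95% interval -2.55 to 2.31), intervals too wide to tell a difference from none. Both genes are uncertain, since 72.9% and 73.8% of their windows occurred in other genes, and 43.4% of the Tuba1a windows in Tuba1b.

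Tuba4a, an alpha-tubulin gene whose product carries no C-terminal tyrosine when made, was above the lowest value in 4 of 12 samples. These were young replicate 3 (2.22, on step 1), aged replicates 0 and 2 (2.40 and 0.90) and CASIN replicate 2 (2.69). The differences from aged HSCs were 0.21 (SE 0.66) in young and 0.51 (SE 0.72) in CASIN-treated HSCs, both well inside their error.

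Tubb5 encodes the most widely expressed beta-tubulin (chr17:35833921-35838306, minus strand). Its log2 values were 4.55, 0.48, 2.03 and 0.65 in young, 5.03, 4.65, 1.88, 1.80 and 7.01 in aged, and 4.52, 5.60 and 0.58 in CASIN samples. All 5 aged samples were above their lowest value, against 2 of 4 young and 2 of 3 CASIN samples. The 2 young samples with Tubb5 stood on step 2, and the aged samples on steps 43, 113, 4, 3 and 157. Young minus aged was -2.14 (SE 1.39) and CASIN minus aged -0.51 (SE 1.52), with exact two-sided permutation p-values of 0.175 and 0.714. Only 0.115% of its windows occurred in other genes. Tuba1b minus Tubb5, a main alpha- over a main beta-tubulin, was 4.01 higher on average in young than in aged HSCs (exact two-sided permutation p = 0.103, adjusted p = 0.155) and 0.39 higher in CASIN-treated than in aged HSCs (exact two-sided permutation p = 0.857). In young replicate 3 and CASIN replicate 3 both genes were at the lowest value, so that their difference of 0 entered these means without having been measured. Tuba1b alone was at the lowest value in young replicate 2 (-3.88), aged replicates 4 and 5 (-1.57 and -6.84) and CASIN replicate 1 (-3.89). Tubb5 alone was so in young replicate 5 (5.12). Both genes were measured only in young replicate 4, aged replicates 0, 2 and 3 and CASIN replicate 2.

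Tubb2a and Tubb6, beta-tubulin genes of neurons and of several non-neuronal tissues, were rarely seen. Tubb2a exceeded 1.5 in 1 of 12 samples, young replicate 5 (5.48, step 17), and was above the lowest value in aged replicate 0 (1.16) and CASIN replicate 2 (0.07). Tubb6 exceeded 1.5 in young replicate 3 (2.50, on step 2) and was above the lowest value in aged replicates 0, 2 and 5 (1.46, 0.29 and 1.39) and CASIN replicate 2 (0.58). Young minus aged was 1.41 (SE 0.94) for Tubb2a and 0.35 (SE 0.51) for Tubb6, and CASIN minus aged was 0.06 (SE 1.03) and -0.12 (SE 0.56). Either gene was above the lowest value in 1 young and 1 CASIN sample, so that the height of the young mean rested on a single library. CASIN replicates 1 and 3 stood at their lowest values of 0.63 and 0.58, at or above both values of CASIN replicate 2. The CASIN means of both genes were thus set mainly by lowest values and not by a measured level. Of the Tubb2a windows, 49.6% occurred in other genes.

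None of the 10 genes was lower without overlap in either comparison, against 1.61% of all genes in young and 1.43% in CASIN-treated HSCs. Only Pfn1 in young and Actb in CASIN-treated HSCs were higher without overlap.

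**Figure D3:**
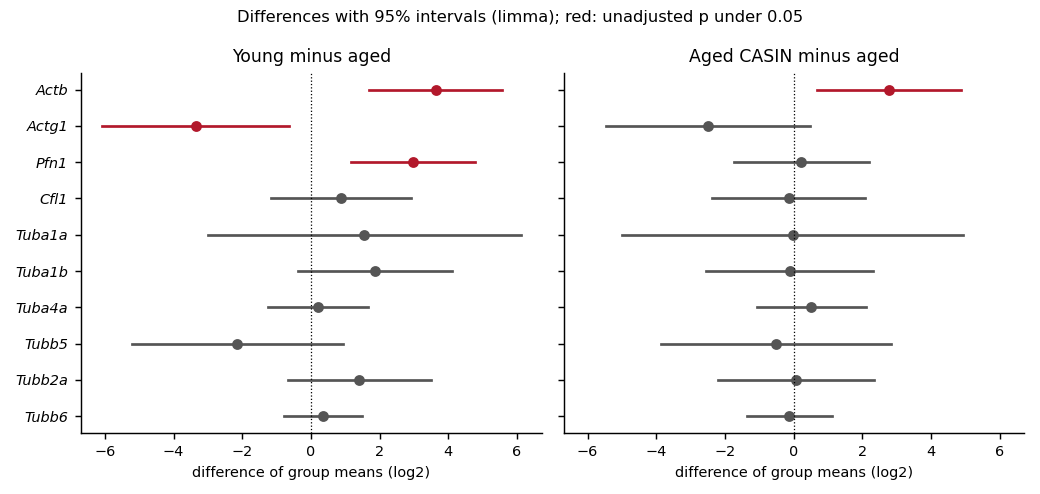
Difference of group means on the log2 scale with its 95% interval from limma for the 10 genes, young minus aged on the left and CASIN-treated minus aged on the right; red marks an unadjusted p under 0.05. Actb is above 0 in both panels (3.63 and 2.79), Actg1 and Pfn1 only on the left have intervals that leave out 0, and no gene passes after adjustment.

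The genes most like Actb over the 12 samples, among 2142 genes above the lowest value in every sample, were Plin3 (Pearson r = 0.91), Esx1 (0.89), Ackr4, Slc25a12 (both 0.88) and Kri1 (0.87). Plin3, which coats lipid droplets, had means of 5.12 in young, 1.56 in aged and 3.68 in CASIN-treated HSCs, and Slc25a12, a mitochondrial aspartate and glutamate carrier, 6.28, 2.31 and 4.33. All 5 were lowest on average in aged HSCs, which follows from their choice by likeness to Actb, itself lowest there. The genes most like Tubb5 were Lhfpl4 and Rnf165 (both r = 0.81), Chat, Atxn7 (both 0.80) and Eif4e2 (0.79). The points of these correlations share their library and scaling, and they are given as a description.

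Other genes of the cytoskeleton were read from 14 lists of 247 genes, of which 246 were in the table. None had an adjusted p under 0.05 in either comparison (limma, smallest adjusted p = 0.182 for Whamm in young against aged and 0.541 for Vash2 in CASIN-treated against aged). Before adjustment 14 had a p under 0.05 between young and aged (9 higher and 5 lower in young, 5.69%, close to the share of all genes) and 8 between CASIN-treated and aged (2 higher and 6 lower, 3.25%). Their median difference was 0.02 for young minus aged and -0.21 for CASIN minus aged.

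Among the proteins that bind, sever or cap actin, 3 of 30 genes had an unadjusted limma p under 0.05 for young against aged, all higher in young, and none for CASIN-treated against aged. They were Tmsb10, a thymosin that sequesters actin monomers, Capg, a capping protein, and Gmfb, which helps to take branched filaments apart. Gmfb was at 3.59 to 4.11 in young HSCs and reached 4.74 in aged HSCs. Its lowest young value equals that of step 1 in young replicate 5, where step 1 in young replicate 2 lay at 4.11. Tmsb10 was at 4.11, 6.60, 7.48 and 3.59 in young and did not exceed 2.83 in aged HSCs, a difference of 3.87 (SE 1.15) without overlap (limma adjusted p = 0.643). Young replicates 2 and 5 stood on step 1 there, and aged replicates 0 and 5 on step 26. Tmod2, a tropomodulin that caps the slow-growing filament end, had 4.80 to 9.35 in all 12 samples, and Coro1c 1.01 to 7.56.

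The activators of the Arp2/3 complex, which seeds branched filaments, held 3 of 20 genes with an unadjusted limma p under 0.05 in young, all higher, and 1 in CASIN-treated HSCs, lower. Whamm, which drives Arp2/3 at inner membranes and binds microtubules, was at 6.71, 6.16, 5.72 and 4.37 in young, at 3.06, 0.74 and 1.32 in aged replicates 0, 2 and 5 and at the lowest value in aged replicates 3 and 4. The groups did not overlap and differed by 4.62 (SE 0.78, limma adjusted p = 0.182), with steps of 61, 76, 53 and 3 in young and 28, 14, 0, 0 and 5 in aged samples. In CASIN samples Whamm was at 3.34, 1.47 and the lowest value. Nckap1l, the WAVE-complex subunit of blood cells, was at 6.82, 5.51, 1.84 and 6.38 in young, 2.05, 1.30, 2.15, 0.22 and 1.21 in aged and 3.34, 3.29 and 3.03 in CASIN samples. It was higher than in aged HSCs by 3.75 (SE 0.91) in young (limma adjusted p = 0.516) and without overlap in CASIN samples, 2 of which stood on step 1, below 4 of the 5 aged samples. Without young replicate 4 the difference in young was 4.85 with a limma adjusted p of 0.0241. Was, the WASP protein that Cdc42 switches on, was present in all 12 samples and higher in young by 2.73 (SE 0.99, limma adjusted p = 0.764). Wasf2, the WAVE2 gene, was the 1 gene lower after CASIN, by 3.16 on the log2 scale (SE 1.36, limma adjusted p = 0.948). In the Arp2/3 complex itself Arpc5l was the only 1 of 10 genes with an unadjusted limma p under 0.05, at the lowest value in all 4 young samples and up to 7.26 in aged HSCs, and the list's median was -1.28 for young minus aged.

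Cdc42, the target of CASIN, was above the lowest value in 3 of 4 young, 5 of 5 aged and 2 of 3 CASIN samples, with values up to 6.15, 6.46 and 7.25. Rac1, the GTPase of lamellipodia, was at 0.63, 0.29 and 0.58 in CASIN and at 0.86, 6.39, 6.11, 5.10 and 1.54 in aged samples, a difference of -3.50 (SE 1.45) without overlap (limma adjusted p = 0.948). On the ladder the groups overlapped, with Rac1 on step 15 in CASIN replicate 2 and on steps 5 and 10 in aged replicates 0 and 5. Pak2, a kinase that Cdc42 and Rac activate, was at 4.94, 3.51 and 3.03 in CASIN against 0.23 to 2.23 in aged samples, with CASIN replicate 3 on step 1 and aged replicates 0 and 2 on steps 17 and 42. Pak4 (8.03 to 9.88) and Pard3b (6.05 to 8.78) were high in all 12 samples.

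Myosin, tropomyosin, crosslinkers and membrane linkers gave 3 of 28 genes with an unadjusted limma p under 0.05 in young (Actn4 higher, Myl6 and Rdx lower) and 2 in CASIN-treated HSCs (Myl6 and Msn lower). Radixin, encoded by Rdx, ties actin to the membrane and was at the lowest value in all 4 young samples but at 6.43, 4.15, 1.27, 3.23 and 3.88 in aged samples (difference -3.23, SE 1.15, limma adjusted p = 0.764). Myl6, a light chain of nonmuscle myosin, was at 0.63, 2.22 and 0.58 in CASIN against 6.22, 3.69, 2.38, 6.63 and 6.86 in aged samples, without overlap (difference -4.01, SE 1.42, limma adjusted p = 0.948). Its steps were 0, 96 and 0 in CASIN and 61, 92, 8, 28 and 145 in aged samples, so that CASIN replicate 2 stood above 4 of 5 aged samples there. Enah, an elongation factor of filaments, was the highest of the list at 9.91 to 11.35 in all 12 samples. Formins and Spire gave 0 of 15 in both comparisons, although Inf2, Diap1 and Spire1 were lower without overlap after CASIN. Inf2, a formin that also takes filaments apart, was at 0.63, 1.35 and 0.58 there against 1.54 to 6.07 in aged samples. On the ladder the order was not kept, since CASIN replicate 2 stood on step 63 and the aged samples on steps 7 to 58. The same sample stood on step 75 for Spire1, above all 5 aged samples (6 to 70), and on step 31 for Diap1, above 3 of 5.

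On the microtubule side the list medians lay between -0.46 and 0.24 for young minus aged. Of 15 genes that modify tubulin, 1 had an unadjusted limma p under 0.05 in young and 2 in CASIN-treated HSCs, all of them lower than in aged HSCs and all vasohibins, the enzymes that clip tyrosine off alpha-tubulin. Vash2 was at the lowest value in all 3 CASIN samples and in 3 of 4 young samples, and at 3.29, 6.12, 5.53, 4.49 and 3.92 in aged samples. CASIN minus aged was -4.27 (SE 0.92, limma adjusted p = 0.541) without overlap, and young minus aged -3.18 (SE 0.84, limma adjusted p = 0.536). The aged values of Vash2 stood on steps 29, 164, 39, 13 and 49. Vash1 was present in all samples at 6.80 to 9.05 and lower in CASIN-treated HSCs by 1.25 on the log2 scale (SE 0.47, limma adjusted p = 0.948). Tubulin folding genes gave 1 of 20 in young, the prefoldin subunit Pfdn2 (higher by 3.54, limma adjusted p = 0.764), and none in CASIN-treated HSCs. The 27 genes of microtubule nucleation, ends and destabilisers, 14 other tubulins, 4 other actins, 8 cofilin kinases and phosphatases, and 6 SRF and MRTF genes gave none in either comparison. Tubal3, an alpha-tubulin-like gene, was present in all 12 samples at 4.64 to 7.82.

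Of the 10 list genes named by the rule in each comparison, 3 in young (Whamm and Tmsb10 higher, Rdx lower) and 6 in CASIN-treated HSCs (Nckap1l and Pak2 higher, Inf2, Myl6, Rac1 and Vash2 lower) stayed apart once all samples were given 1 common lowest value of 0.67. The other named genes, such as Tbce, Arl2, Acta1 and Tmod1, parted the groups on the deposited values but not with the common lowest value. The named genes were picked for not overlapping, so their counts cannot be set against the share of all genes. Of all 246 list genes, 2 were higher and 1 lower without overlap in young with the common lowest value. In CASIN-treated HSCs 2 were higher and 7 lower. Over all genes 0.341% were then higher and 1.61% lower without overlap in young, and 0.683% and 1.43% in CASIN-treated HSCs.

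**Figure D4:**
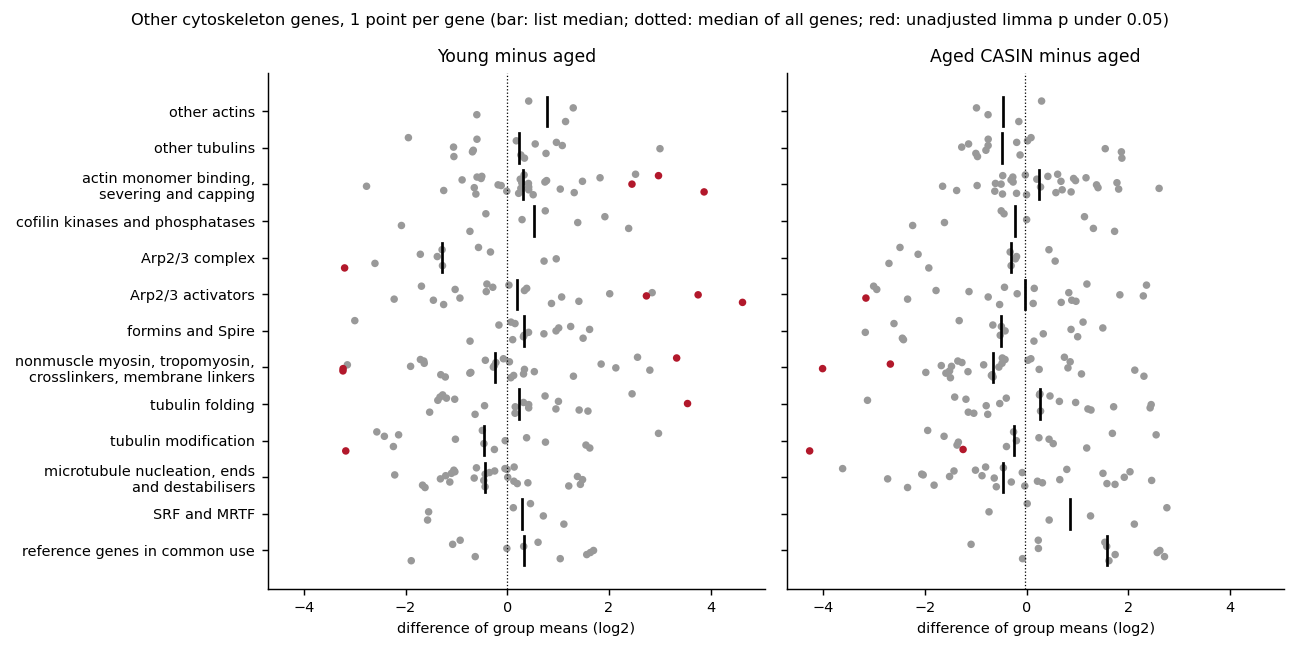
Difference of group means on the log2 scale for each gene of 13 lists, young minus aged on the left and CASIN-treated minus aged on the right, with the list median as a bar, the median of all genes as a dotted line and an unadjusted limma p under 0.05 in red. The Arp2/3 complex has the lowest median on the left (-1.28) and the reference genes the highest on the right (1.57).

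Actb is often used as a reference gene, and 11 genes in common use for that purpose were read beside it. None had an unadjusted limma p under 0.05 in either comparison, with list medians of 0.32 for young minus aged and 1.57 for CASIN minus aged. Gapdh (5.71 to 9.04) and Eef1a1 (1.97 to 9.44) were the 2 above the lowest value in all 12 samples, whereas B2m was so in 1 of 4 young samples and Hprt in none. Markers of other cell types were read in the same way. Of 7 smooth muscle and stroma genes, Lepr and Col1a2 were lower in young HSCs before adjustment (limma, by 4.12 and 2.98 on the log2 scale), while the mean levels of Col1a1 (4.89 against 1.77), Tagln (3.98 against 2.94) and Acta2, the actin of smooth muscle (3.66 against 2.37), were higher in young than in aged HSCs without passing. The mean of the list ranged from 1.46 to 3.63 in young, from 2.88 to 4.20 in aged and from 1.44 to 4.06 in CASIN samples. Acta2 was at up to 7.58 in young, at 1.16 to 3.59 in aged and at up to 2.94 in CASIN samples. Of 6 megakaryocyte and platelet genes Pf4 was at the lowest value in every sample but CASIN replicate 2 (higher by 1.01 after CASIN before adjustment), and of 6 neutrophil and monocyte genes Lyz2 was higher in young by 1.75 before adjustment, whereas Mpo and Elane were at the lowest value in all 4 young samples and averaged 2.11 and 2.58 in aged HSCs. The 11 HSC, 4 erythroid, 4 B cell and 4 T cell genes gave none with an unadjusted limma p under 0.05. The part of such cells in the actin differences was not tested.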

How the data were processed

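RNA-seq of 12 samples was analysed. The authors trimmed paired-end reads with trim galore, aligned them with TopHat to mm10 RefSeq and processed them with Cufflinks. They deposited log2 values that share nearly 1 distribution, and the steps to them are not given in the sources used here. The depth is unknown, and no counts were used here. All columns were used.

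Groups and replicate numbers were taken from the sample labels. The deposited log2 values were fitted with limma 3.58.1 in R 4.3.3 (1 fit of 12 samples and 3 groups, two-sided moderated statistics, Benjamini-Hochberg over 22548 genes, threshold 0.05), tested on simulated data. Single genes and pairs were tested by exact two-sided permutation. p-values measure the spread between these libraries. Counts of groups without overlap used a common lowest value, and list genes were named by overlap on the deposited values. The members and lists were chosen with earlier results of these data known. Named genes are the 10 members, the 10 list genes per comparison with non-overlapping groups and the smallest p, up to 2 genes of highest mean per list, and the 5 genes most like Actb and Tubb5. Of these, and of the 7 marker lists, the text gives those its results turn on, and other list genes with an unadjusted p under 0.05 were named after their values were seen. Alternatives were the lowest value, centring, filters, a pseudocount of 0.1, array weights, limma-trend with robust eBayes, 2 groups only, a detection covariate, a replicate block and each sample left out. The count of 1 list is not reported here. Steps in place of values were added after seeing the data. Positions are from GENCODE M21 (mm10) and promoters from RefSeq. Python 3.11.15 and matplotlib 3.10.9 were used.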

Additional observations from a re-analysis of the deposited data

Results flagged for a closer look

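In 5 of 20 tests of a gene in a group of 4 or 5 samples, 1 sample lay apart from the rest of its group by more than Dixon's 95% critical value. The usual chance rate of about 1 in 20 does not apply to the 4 tubulin cases, in which every other sample of the group stood at its own lowest value and any sample above it would lie apart. Actg1 was at 2.21 in aged replicate 5, with the next lowest aged sample at 5.79. Tuba4a was at 2.22 in young replicate 3, Tubb6 at 2.50 in the same sample and Tubb2a at 5.48 in young replicate 5, while the other young samples stood at their lowest value (at most 0.67). Tubb2a was at 1.16 in aged replicate 0, where the other aged samples stood at their lowest value (at most 0.23). The causes were not tested.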

How the results depend on the processing

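Over all genes, 4 were called in young against aged and 5 in CASIN-treated against aged. A filter of detection in at least 6 samples, a mean of at least 3 and a pseudocount of 0.1 each gave 2 and 2, the detection covariate 2 and 9, and limma-trend with robust eBayes 2 in the second. Leaving out 1 sample gave 2 to 16 and 2 to 51, the highest without young replicate 5 (15 without young replicate 4) and without CASIN replicate 2. Of the members, 3 had an unadjusted limma p under 0.05 for young against aged HSCs, and 1 with limma-trend and robust eBayes (Actb) or with the detection covariate (Actb). In CASIN-treated against aged HSCs 1 member had one, 0 with limma-trend and robust eBayes, and 1 to 2 with 1 sample left out (2 without aged replicate 5). Members with an exact permutation p under 0.05 numbered 2 and 1, and 1 to 3 and 1 to 2 with 1 sample left out. The filter on detection kept 7 members and the mean of at least 3 kept 3.

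No alternative turned the sign of Actb or Actg1 in either comparison, or of Pfn1 in young against aged. Actb lay between 2.91 and 4.62 for young and 2.48 and 3.24 for CASIN. Of 210 values of members under alternatives, 5 changed sign for young and 32 for CASIN, all of them for genes with differences inside their error. For young minus aged these were Tuba1a with the detection covariate (-0.19), Tuba4a with a common lowest value (-0.00339), and, with 1 sample left out, Tuba4a (-0.20 to 0.61), Tubb6 (-0.13 to 0.56) and Cfl1 (-0.0559 to 1.47). For CASIN minus aged, centring on genes detected in all samples gave 0.33 for Tuba1a, 0.23 for Tuba1b, 0.23 for Tubb6 and 0.21 for Cfl1. A pseudocount of 0.1 gave 0.62, 0.11 and 0.0320 for Tuba1a, Tuba1b and Tubb6, array weights 0.0127 for Tuba1a, and a common lowest value -0.10 for Tubb2a. The detection covariate gave 0.12 for Tubb5, -0.12 for Tubb2a, -0.16 for Pfn1 and 0.0925 for Cfl1. With 1 sample left out the ranges were -1.57 to 0.91 for Tuba1a, -0.29 to 0.13 for Tuba1b, -0.18 to 0.92 for Tuba4a, -1.53 to 0.99 for Tubb5, -0.0395 to 0.26 for Tubb2a, -0.25 to 0.0595 for Tubb6, -0.81 to 0.79 for Pfn1 and -0.77 to 0.18 for Cfl1. Centring shifted the median of all genes by 0.45 for young and 0.35 for CASIN.

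Over the 3 alternative settings of the pairs in young against aged, the step scale among them, Actg1 minus Actb was -7.88 to -5.54. Its adjusted exact permutation p was 0.0476 to 0.0952. For Cfl1 minus Pfn1 the adjusted exact permutation p was 0.0476 to 0.127, so passing turned on the setting for both pairs. With 1 sample left out neither pair passed (smallest adjusted exact permutation p = 0.0714). Cfl1 minus Pfn1 in young against aged was -2.58 with a pseudocount of 0.1 (exact permutation p = 0.0635) and -2.48 to -1.86 with 1 sample left out. In CASIN-treated against aged it was 0.0343 on the step scale (positions within a sample, not amounts) and -1.44 to 0.99 with 1 sample left out. Actg1 minus Actb in CASIN-treated against aged was -6.20 to -3.87 with 1 sample left out (exact permutation p = 0.0286 without aged replicate 5 and 0.0476 without CASIN replicate 2). Tuba1b minus Tubb5 was 4.59 on the step scale in young against aged and 2.56 to 5.56 with 1 sample left out, and -1.02 to 1.28 in CASIN-treated against aged.

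Deviations from the group means were nearly uncorrelated between samples with the same replicate number (-0.0128 to 0.0576). Samples with unlike numbers gave -0.0469 to 0.0275, so the highest value was that of CASIN replicate 2 with aged replicate 2. The numbers were not taken to pair the samples, which this check cannot settle. The replicate block gave 2 and 1 called genes over all genes and changed the sign of Tuba1b in CASIN-treated against aged (0.54). It also moved Tuba1a in that comparison from -0.02 to -3.86 (limma, adjusted p = 0.999), the widest shift of a member. The unknown depth, the low steps of many values and 3 to 5 samples per group limit what could be called.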
